A study of Mus musculus with 18 samples.

Results

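The expression of 10 genes of the endothelin, fibroblast growth factor (FGF), neurotrophin, epidermal growth factor (EGF) and related survival factor systems was followed in the light-damaged mouse retina. The genes were chosen by symbol as ligands and receptors of these systems, with earlier results of these data known. They are Edn2, Ednra, Ednrb, Fgf2, Fgfr1, Bdnf, Gdnf, Hbegf, Egfr and Manf, 10 of the 23420 genes counted. Shares and medians of all tested genes stand beside theirs for scale and are no independent test of them. All 10 passed the filter on low counts, which kept 15196 genes. RNA was sequenced from whole retinas of 9 wild-type BALB/cJ mice, an albino strain whose photoreceptors are sensitive to bright light. The 3 naïve mice received neither light nor treatment. The 3 vehicle-treated and the 3 TD139-treated mice were exposed to white light of 15000 lux for 1 h, and their retinas were taken 4 days later. TD139, a small molecule inhibitor of galectin-3, was injected into the peritoneum at 15 mg/kg on consecutive days from the day before the light, and vehicle-treated mice received the solvent in the same way. Vehicle-treated against naïve mice are called the light comparison here, and TD139-treated against vehicle-treated mice the drug comparison. No group was treated without light, so the light comparison holds light and vehicle together, and the drug alone was not compared with the naïve state. Each sample came from 1 mouse, and both sexes were used according to the methods of the study.

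Endothelins are small peptides that act on the G protein-coupled receptors encoded by Ednra and Ednrb. In the damaged retina, endothelin 2 is known as a signal made by stressed photoreceptors, and the endothelin B receptor is found on Müller glia and astrocytes. FGF2 and BDNF are textbook examples of factors that delay photoreceptor death when supplied to the retina, and much of their action is thought to pass through Müller glia. FGFR1, EGFR and the BDNF receptor are receptor tyrosine kinases, which signal through RAS and ERK. GDNF acts through a GFRα co-receptor and RET, HB-EGF is a membrane-anchored ligand of EGFR that is shed by proteases, and MANF is an endoplasmic reticulum protein that is induced and partly secreted under protein folding stress.

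In vehicle-treated mice, the FGF receptor gene Fgfr1 and the EGF receptor gene Egfr were each more than 2-fold higher than in naïve mice. In TD139-treated mice, Fgfr1 was 0.477-fold the vehicle level and Hbegf 0.753-fold. With 1 mouse left out, the difference from naïve mice passed the test in 3 of 9 fits for Fgfr1 and 5 for Egfr. The difference of TD139-treated from vehicle-treated mice passed it in 7 of 9 fits for Fgfr1 and 1 for Hbegf. Edn2 was highest in all 3 vehicle-treated mice, but it varied several-fold within the naïve and TD139-treated groups, and neither difference passed the test. The 3 neurotrophic ligands Bdnf, Gdnf and Manf did not pass the test in any comparison. A gene is called changed here when its adjusted p-value (Benjamini and Hochberg, over 15196 genes, edgeR's quasi-likelihood test on all 9 mice) was under 0.05. In this way 2 of the 10 were higher and 0 lower in the light comparison, where 4.91% of all tested genes were higher and 2.89% lower, 7.80% together. In the drug comparison 2 of the 10 genes were lower and 0 higher, where 16.2% of all tested genes were lower and 17.2% higher, 33.4% together. Between TD139-treated and naïve mice none of the 10 genes was called in edgeR, where 2.72% of all tested genes were higher and 2.38% lower, 5.10% together. For that comparison 1 of the 10 genes had an unadjusted p-value under 0.05, as did 29.6% of all tested genes, while DESeq2 called 0 of the 10 and limma voom 1. In the light comparison and in the drug comparison 3 of the 10 each had an unadjusted p-value under 0.05, beside 27.6% and 46.4% of all tested genes. None of the 10 genes passed both the adjusted p-value and the fold change cut-off of the study, a log2 fold change of at least 2 or at most -2, in edgeR on all 9 mice in any comparison. In the drug comparison Edn2 passed both with DESeq2 without a prior (-2.55, adjusted p = 0.0224), with limma voom and in edgeR without TD139-treated mouse 1. With the prior of DESeq2 on the fold change, Edn2 was at -0.70 (adjusted p = 0.0253) and did not pass the fold change cut-off. Among all tested genes, 1.24% passed this cut-off upwards and 0.00658% downwards in the light comparison, 0.125% and 1.53% in the drug comparison, and 0.0197% and 0.00658% between TD139-treated and naïve mice. The same vehicle-treated mice stand in the first and the second comparison, so opposite signs in these are not independent of each other.

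The upstream sequences of a pair of genes whose vehicle-treated mice all lay above the naïve mice and above the TD139-treated mice are shown here, because they are the stretches next to the start of the ligand gene and of the receptor gene with the highest fold changes in vehicle-treated mice. RefSeq promoter entries on GRCm38.p6 were matched for 7 of the 10 genes, 14 entries in all, and the 250 bases upstream of each start were searched on both strands for 5 motifs. These were the AP-1 site TGANTCA, the STAT site TTCNNNGAA, the photoreceptor CRX site TAATCC, the GC box GGGCGG and the TATA box TATAAA. Of 32851 such upstream stretches of all genes, 6.75% held the AP-1 letters, 7.02% the STAT letters, 6.25% the CRX letters, 32.7% the GC box and 12.4% the TATA box. The Edn2 stretch, on the plus strand at chr4:120160956-120161205, held none of the 5. The Egfr stretch, on the plus strand at chr11:16751953-16752202, held 1 GC box, on the opposite strand, which starts 9 bases upstream of the start site and is printed in capitals.
Edn2: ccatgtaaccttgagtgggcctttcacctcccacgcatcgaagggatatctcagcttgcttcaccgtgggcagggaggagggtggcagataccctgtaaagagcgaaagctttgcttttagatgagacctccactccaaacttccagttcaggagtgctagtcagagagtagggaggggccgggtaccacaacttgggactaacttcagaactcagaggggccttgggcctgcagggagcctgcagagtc
Egfr: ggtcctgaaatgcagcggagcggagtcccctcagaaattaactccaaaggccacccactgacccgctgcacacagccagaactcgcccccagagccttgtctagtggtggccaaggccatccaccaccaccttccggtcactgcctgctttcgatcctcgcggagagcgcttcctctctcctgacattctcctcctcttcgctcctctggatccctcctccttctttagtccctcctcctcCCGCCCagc
Among the other genes, Ednrb had 1 match to the CRX letters, starting 25 bases upstream, and Fgf2 had 1 GC box, starting 49 bases upstream. Of the 7 Bdnf stretches, 1 held a STAT match, 1 held an AP-1 match and 2 GC boxes, and 1 held a GC box, while 1 of the 2 Gdnf stretches held a TATA box, starting 31 bases upstream. The Ednra stretch held none of the 5. A match is a run of letters and says nothing about binding.

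Reads counted on genes ranged from 26171887 to 30201517 per mouse. CPM values (counts scaled to a common library size) use library sizes adjusted with TMM factors, on which 3 counts, taken as the limit of detection, stand for 0.101 to 0.119 CPM. This limit covers counting error only. CPM values are given as mean ± SD with n = 3 mice. Defining markers of the neural retina were present in every mouse, with the summed level of 6 rod genes between 25266 and 44489 CPM. Vehicle-treated mouse 2 stood apart in lens genes, with 6100 CPM summed over 4 lens markers against 0.383 to 240 CPM in the other mice. Without this mouse, 2 of the 10 genes were called in each of the light and the drug comparison as before, but they were Ednrb and Egfr in the first and Ednrb and Fgfr1 in the second, so that Fgfr1 (adjusted p = 0.0626) and Hbegf (adjusted p = 0.122) were each replaced by Ednrb.

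**Figure D1:**
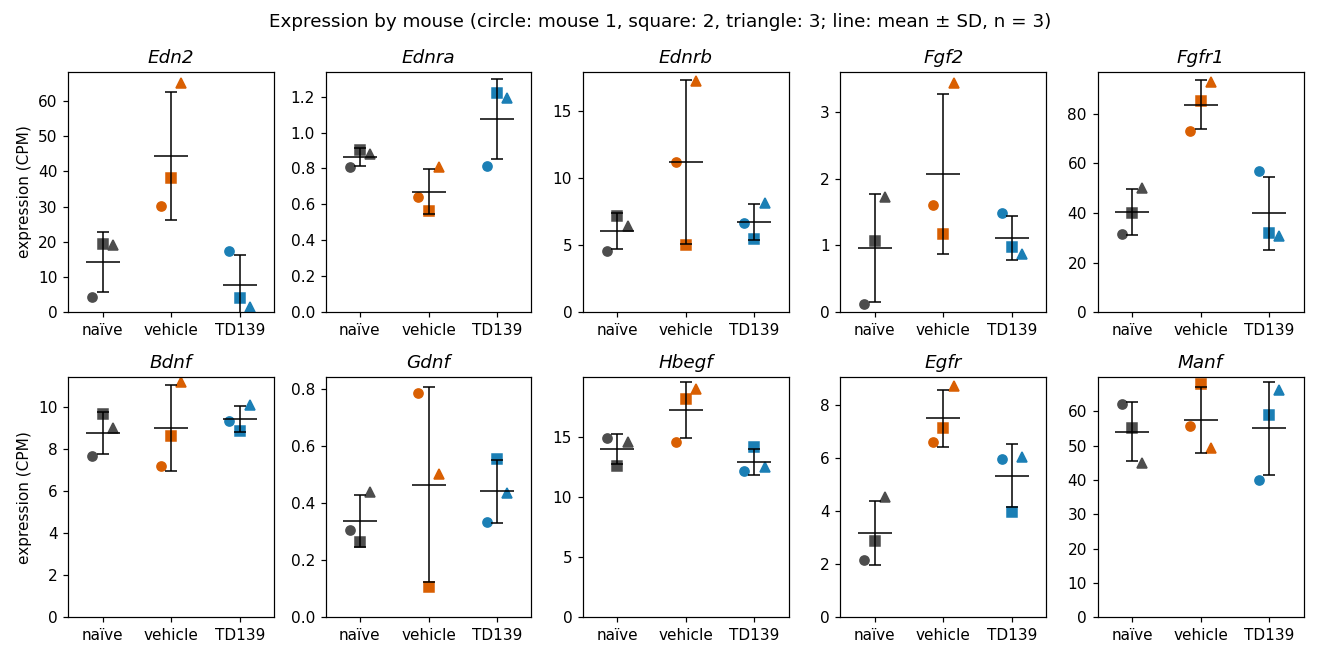
Expression of the 10 genes in each mouse, in CPM on the vertical axis, by group on the horizontal axis. Circles, squares and triangles are mice 1, 2 and 3 of a group, and the line with bars is the mean ± SD (n = 3). For Edn2, Fgfr1 and Egfr every vehicle-treated mouse lies above every naïve and every TD139-treated mouse.

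The endothelin ligand gene Edn2 (chr4:120161206-120167360, plus strand, ENSMUSG00000028635.7) was at 4.42, 19.3 and 19.2 CPM in the 3 naïve mice. In vehicle-treated mice Edn2 was at 30.1, 38.0 and 65.0 CPM. In TD139-treated mice it was at 17.5, 3.93 and 1.38 CPM. All vehicle-treated mice were thus above all others, while TD139-treated mouse 1 lay among the naïve mice and TD139-treated mice 2 and 3 below them. The means were 14.3 ± 8.57, 44.3 ± 18.3 and 7.60 ± 8.66 CPM, so that the SD of the TD139-treated mice exceeded their mean. The log2 fold change of Edn2 in the light comparison was 1.63 (standard error 0.96, 95% confidence interval -0.67 to 3.93, adjusted p = 0.318 in edgeR). In the drug comparison it was -2.54 (standard error 0.99, 95% confidence interval -4.93 to -0.15, adjusted p = 0.0927). This second difference was called with DESeq2 (-2.55, adjusted p = 0.0224), with limma voom (-3.86, adjusted p = 0.0177) and in edgeR without TD139-treated mouse 1 (-4.05, adjusted p = 0.0194). The shrunken estimate of DESeq2 with its prior was -0.70 (adjusted p = 0.0253). Edn2 differed the most in size among the 10 genes between vehicle-treated and TD139-treated mice, and was also the gene with the widest interval in that comparison.

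The receptor genes of the system had lower mean levels per length of exon than the ligand gene in each group, and neither was called. Ednra, the endothelin A receptor (chr8:77663031-77724464, minus strand), was at 0.807, 0.904 and 0.880 CPM in naïve mice. It was at 0.644, 0.565 and 0.806 CPM in vehicle-treated mice and at 0.816, 1.22 and 1.19 CPM in TD139-treated mice. Ednra was the only one of the 10 genes whose vehicle-treated mice all lay below the naïve mice and below the TD139-treated mice, although its nearest mice lay at 0.806 against 0.807 and 0.816 CPM, with 16 to 35 reads per mouse. Neither its log2 fold change of -0.36 (adjusted p = 0.518) nor that of 0.67 (standard error 0.33, adjusted p = 0.136) passed the test in edgeR. Ednrb, the endothelin B receptor (chr14:103814625-103844402, minus strand), was at 4.57, 7.16 and 6.41 CPM in naïve mice. In vehicle-treated mice Ednrb was at 11.2, 5.05 and 17.3 CPM, and in TD139-treated mice at 6.67, 5.43 and 8.14 CPM. Vehicle-treated mice 1 and 3 were above all others and vehicle-treated mouse 2, the mouse with the lens signal, lay within the naïve range. With all mice, the log2 fold change of Ednrb was 0.89 (standard error 0.38, adjusted p = 0.160 in edgeR) in the light comparison and -0.73 (standard error 0.38, adjusted p = 0.152) in the drug comparison. Without vehicle-treated mouse 2, Ednrb was called in both comparisons, with 1.24 (adjusted p = 0.0277) and -1.08 (adjusted p = 0.0202). Without vehicle-treated mouse 3, the mouse with the highest level, the values of Ednrb were 0.43 (adjusted p = 0.477) and -0.27 (adjusted p = 0.569). The whole endothelin list, which adds the other ligands and the enzymes that mature or degrade them, had 8 genes, all tested. In edgeR 0 of these were called in the light comparison, beside 7.80% of all tested genes. There 4 of the 8 had an unadjusted p-value under 0.05, beside 27.6% of all tested genes, and DESeq2 called 0 and limma voom 1. In the drug comparison edgeR called 0 of the 8, beside 33.4% of all tested genes. There 1 of the 8 had an unadjusted p-value under 0.05, beside 46.4%, and DESeq2 and limma voom each called 1. The median log2 fold change of the list was 0.71 and -0.33 in these comparisons, beside -0.00 and -0.02 for all tested genes, and 0.36 and -0.14 without vehicle-treated mouse 2. Mme, which encodes an endothelin-degrading protease, and Edn3, another ligand gene, were both named after their values were seen. In vehicle-treated mouse 2 they were at 9.08 and 2.68 CPM. The other vehicle-treated mice were at 0.751 and 0.907 CPM for Mme and at 0.179 and 0.202 CPM for Edn3. Edn3 was at 1.71 CPM in TD139-treated mouse 1. Without vehicle-treated mouse 2, Ednrb was the 1 gene of the list called in the light and in the drug comparison.

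Of the FGF pair, the receptor gene was called and the ligand gene was not. Fgf2, which encodes the basic FGF (chr3:37348346-37410108, plus strand), had 3, 28 and 47 reads in the naïve group, 45, 33 and 102 in the vehicle group and 40, 28 and 22 in the TD139 group. In CPM these were 0.115, 1.06 and 1.72, then 1.61, 1.17 and 3.43, and then 1.48, 0.974 and 0.869. Naïve mouse 1 was at the limit of detection and vehicle-treated mouse 3 had the highest level, and the groups overlapped. The log2 fold change of Fgf2 was 1.09 (standard error 0.69, adjusted p = 0.325 in edgeR) in the light comparison and -0.90 (standard error 0.68, adjusted p = 0.323) in the drug comparison. Its first value was 0.59 without naïve mouse 1, 1.82 without naïve mouse 3 and 0.52 without vehicle-treated mouse 3, and its second was -0.32 without vehicle-treated mouse 3 and between -1.18 and -0.75 with any other mouse left out, none of them called. The exons of Fgf2 share 640 bases, 9.44% of their length, with Nudt6 on the opposite strand, which had 76 to 270 reads. The libraries were made with a stranded kit, but whether the counting used strand is not given in the sources used here, so the reads of both genes cannot be told apart in this stretch.

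Fgfr1, the FGF receptor 1 gene (chr8:25513654-25575718, plus strand, ENSMUSG00000031565.18), was at 31.5, 39.9 and 50.2 CPM in naïve mice. In vehicle-treated mice Fgfr1 was at 73.3, 85.1 and 92.8 CPM, and in TD139-treated mice at 57.0, 32.0 and 30.9 CPM. The 3 vehicle-treated mice lay above the other 6, with TD139-treated mouse 1 the nearest to them. Fgfr1 rose from 40.6 ± 9.33 to 83.7 ± 9.86 CPM in vehicle-treated mice, which is 2.06-fold or 1.05 on the log2 scale (95% confidence interval 0.49 to 1.60, standard error 0.25, adjusted p = 0.0368 in edgeR). With TD139 it was at 40.0 ± 14.7 CPM, and its log2 ratio to vehicle was -1.07 (95% confidence interval -1.62 to -0.51, standard error 0.25, adjusted p = 0.0126), so that Fgfr1 fell in the drug comparison. TD139-treated and naïve mice differed by -0.02 on the log2 scale, with a 95% confidence interval of -0.57 to 0.53. The call in the light comparison was lost without any 1 of these 6 mice (adjusted p = 0.0903, 0.113 and 0.0609 for naïve mice 1, 2 and 3 in turn, and 0.0724, 0.0626 and 0.110 for vehicle-treated mice 1, 2 and 3), with log2 fold changes of 0.91 to 1.23, and with the replicate number as a block (adjusted p = 0.0733). The call in the drug comparison was kept in 12 of 12 other settings and lost without TD139-treated mouse 2 (adjusted p = 0.0581) or 3 (adjusted p = 0.0519).

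The pattern of Fgfr1 over the 9 mice was compared with that of 13093 genes whose mean was 50 counts or more, by the root mean square difference of log2 CPM values centred on the naïve mean. The most alike were Zcchc24 (0.14), Plscr1 (0.15) and Synpo (0.16), and these are differences on the log2 scale. The nearest to Egfr were Prkg1 (0.25), Arhgap42 (0.28) and Dpyd (0.31), and the nearest to Ednrb were Socs2 (0.27), Inpp5d (0.29) and Dnaaf3 (0.30). By this measure Fgfr1 had closer neighbours than Egfr or Ednrb, but it also had more reads. These were 783 to 2763 per mouse for Fgfr1, 56 to 259 for Egfr and 119 to 515 for Ednrb. The measure includes counting error, whose part in these values was not tested.

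Of the EGF pair, the ligand gene was called in the drug comparison and the receptor gene in the light comparison. Hbegf, the gene of the ligand HB-EGF (chr18:36504927-36515805, minus strand), was at 14.9, 12.6 and 14.6 CPM in naïve mice. In vehicle-treated mice Hbegf was at 14.6, 18.2 and 19.0 CPM, and in TD139-treated mice at 12.2, 14.2 and 12.5 CPM. Vehicle-treated mouse 1 lay inside the naïve range, whereas all vehicle-treated mice were above all TD139-treated mice. Hbegf fell from 17.2 ± 2.30 CPM in vehicle-treated to 13.0 ± 1.04 CPM in TD139-treated mice, or by -0.41 on the log2 scale (95% confidence interval -0.73 to -0.09, standard error 0.15, adjusted p = 0.0492 in edgeR). This call lies at the threshold and was lost in 7 of 12 other settings, among them RLE normalization (adjusted p = 0.0526) and a per-mouse correction for transcript length and GC content (-0.18, adjusted p = 0.381). It was also lost without any mouse except vehicle-treated mouse 1, with adjusted p-values of up to 0.149. In the light comparison the log2 fold change of Hbegf was 0.30 (standard error 0.15, adjusted p = 0.209).

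Egfr, the EGF receptor gene (chr11:16752203-16918158, plus strand, ENSMUSG00000020122.16), was at 2.15, 2.86 and 4.51 CPM in naïve mice and at 6.61, 7.14 and 8.70 CPM in vehicle-treated mice. In TD139-treated mice Egfr was at 5.97, 3.97 and 6.05 CPM. The vehicle-treated mice were above all others, and the TD139-treated mice reached from within the naïve range to just below the vehicle-treated mice. Egfr rose from 3.17 ± 1.21 to 7.48 ± 1.09 CPM in vehicle-treated mice, which is 2.35-fold or 1.24 on the log2 scale (95% confidence interval 0.62 to 1.85, standard error 0.28, adjusted p = 0.0288 in edgeR). Its call was lost without naïve mouse 1 (adjusted p = 0.0714) or 2 (0.101), without vehicle-treated mouse 1 (0.0643) or 3 (0.0888), and with the reads of flow cell 2 alone (0.0926). The TD139-treated mice, at 5.33 ± 1.18 CPM, differed from vehicle-treated mice by -0.49 on the log2 scale (95% confidence interval -1.10 to 0.11, adjusted p = 0.182). They differed from naïve mice by 0.74 (95% confidence interval 0.13 to 1.36, adjusted p = 0.110), which limma voom called (0.86, adjusted p = 0.00851), as did edgeR without naïve mouse 3 (1.09, adjusted p = 0.0254). With transcript length and GC content corrected for, this difference was 0.27 (adjusted p = 0.673). Under the same correction, the difference of Egfr between TD139-treated and vehicle-treated mice was -1.03 and called (adjusted p = 0.0167). The difference from vehicle was thus called in 1 of the 12 other settings for Egfr and in 12 for Fgfr1.

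The ligand genes of the other survival factor systems did not pass the test. Bdnf, the gene of the brain-derived neurotrophic factor (chr2:109674700-109727007, plus strand), was at 7.68, 9.65 and 8.98 CPM in naïve, 7.19, 8.62 and 11.2 CPM in vehicle-treated and 9.31, 8.87 and 10.1 CPM in TD139-treated mice. Its log2 fold changes were 0.04 (95% confidence interval -0.37 to 0.44, adjusted p = 0.909 in edgeR) and 0.06 (adjusted p = 0.808) in vehicle-treated against naïve and TD139-treated against vehicle-treated mice. The interval of Bdnf in the first of these comparisons excludes a change as large as that estimated for Fgfr1 or Egfr. Of its exon bases, 14.4% lie opposite the antisense gene Gm45346, which was not counted. Gdnf, the glial cell line-derived neurotrophic factor gene (chr15:7810846-7837575, plus strand), had only 3 to 22 reads per mouse. It was at 0.307, 0.264 and 0.440 CPM in naïve, 0.787, 0.106 and 0.504 CPM in vehicle-treated and 0.334, 0.557 and 0.435 CPM in TD139-treated mice, with vehicle-treated mouse 2 at the limit of detection. The 95% confidence interval of its log2 fold change in the light comparison was -0.88 to 1.79, which includes 0 and the size estimated for Fgfr1. Manf, the gene of the mesencephalic astrocyte-derived neurotrophic factor (chr9:106838312-106891979, minus strand), was at 62.2, 55.1 and 45.0 CPM in naïve, 55.6, 68.1 and 49.2 CPM in vehicle-treated and 40.0, 58.9 and 66.2 CPM in TD139-treated mice. Its log2 fold change was 0.09 (95% confidence interval -0.34 to 0.52, adjusted p = 0.792) in the light comparison and -0.07 (adjusted p = 0.808) in the drug comparison. The groups overlapped for all of Bdnf, Gdnf and Manf in every comparison.

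**Figure D2:**
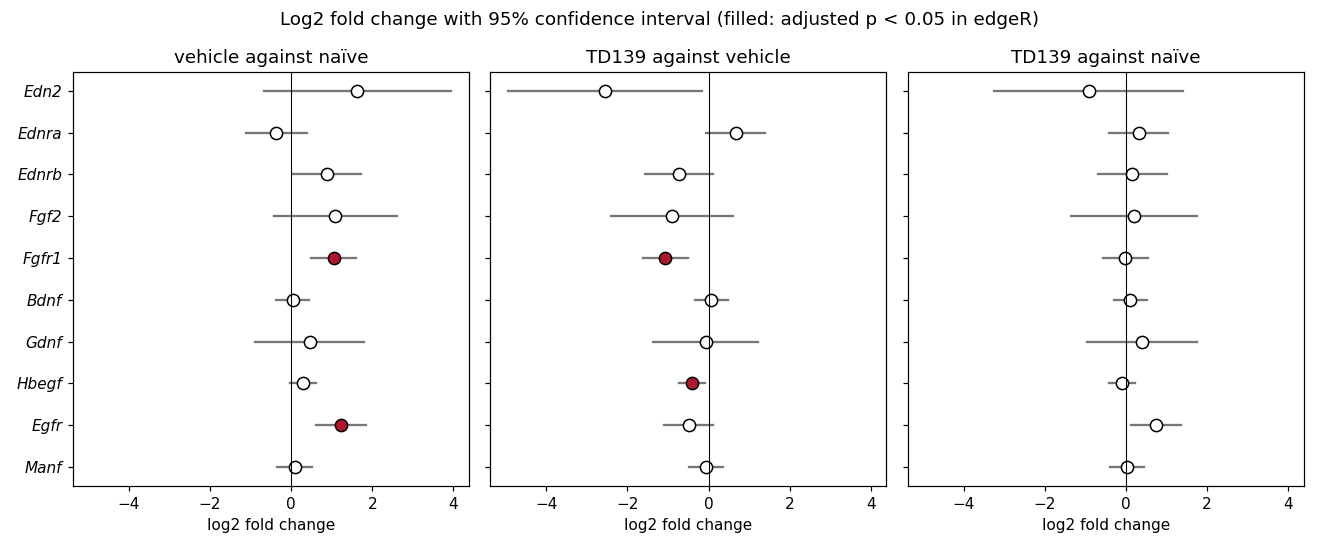
Log2 fold changes of the 10 genes (points) with 95% confidence intervals (lines) in the 3 comparisons, from edgeR on all 9 mice. Filled points have an adjusted p-value under 0.05, which are Fgfr1 and Egfr for vehicle against naïve, Fgfr1 and Hbegf for TD139 against vehicle, and none for TD139 against naïve.

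Across the 10 genes, the median log2 fold change was 0.67 in the light comparison (0.41 to 0.98 with 1 mouse left out), -0.45 in the drug comparison (-0.54 to -0.30) and 0.13 in TD139-treated against naïve mice, where the medians of all tested genes were -0.00, -0.02 and -0.00. Between vehicle-treated and naïve mice, 3 of the 10 genes (Edn2, Fgfr1 and Egfr) lay above with no overlap between the groups and 1 (Ednra) below, where 16.7% of all tested genes lay above and 16.6% below, 33.3% together. Between TD139-treated and vehicle-treated mice, 4 genes (Edn2, Fgfr1, Hbegf and Egfr) lay below and 1 (Ednra) above, where 25.4% of all tested genes lay below and 26.0% above, 51.5% together. None of the 10 was without overlap between TD139-treated and naïve mice, where 15.3% of all tested genes lay above and 16.8% below, 32.2% together. With 3 mice a group, the smallest p-value of an exact permutation test would be 0.1.

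To compare levels between genes, CPM was divided by the length of all exons in kilobases (kb). In naïve mice, Manf was the highest with 15.4 ± 2.45 CPM per kb, followed by Edn2 (9.79 ± 5.86), Fgfr1 (4.11 ± 0.945) and Hbegf (2.90 ± 0.260). The ranges of Manf and Edn2 overlapped, as did those of Edn2 and Fgfr1, so the order of these neighbours was not separated by the mice. Ednrb (1.42 ± 0.312) and Bdnf (1.41 ± 0.161) were alike in level and Egfr was at 0.280 ± 0.107 CPM per kb. Ednra, Fgf2 and Gdnf were the lowest, with 0.158, 0.142 and 0.0917 CPM per kb, and the range of Fgf2 overlapped those of the other two, which did not overlap each other. In vehicle-treated mice Edn2 came first with 30.3 ± 12.5 CPM per kb, above Manf (16.3 ± 2.73) with no overlap, and in TD139-treated mice Manf (15.6 ± 3.83) came first again, with Edn2 (5.20 ± 5.93) overlapping it. Among the receptors, Fgfr1 was the highest per kb in all 3 groups.

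Of the lists around these genes, 11 with 116 genes were described, of which 103 were tested. The lists too were chosen with earlier results of these data known. In the light comparison, 7 of the 103 (6.80%) were higher and 1 (0.971%) lower, beside 4.91% and 2.89% of all tested genes. In the drug comparison, 10 (9.71%) were higher and 11 (10.7%) lower, beside 17.2% and 16.2%. These shares of TD139-treated against vehicle-treated mice are below those of all genes in both directions, and the 10 genes described above are among the 103. The same shares of all tested genes stand beside the counts of each list below. An unadjusted p-value under 0.05 was held by 27.6% of all tested genes in the light comparison and 46.4% in the drug comparison. Between TD139-treated and naïve mice 7 (6.80%) were higher and 0 lower, beside 2.72% and 2.38% of all tested genes. These were Fgf11, Fgf13, Fgf14, Gfra1, Spred1, Etv1 and Igf1, the latter 5 named after their values were seen. Their adjusted p-values lay between 0.0428 and 0.0498, and no gene of the 15196 was called in that comparison with the replicate block, with the length and GC correction or in 5 of the 9 fits with 1 mouse left out in edgeR (those that lacked naïve 1, naïve 2, vehicle-treated 2, TD139-treated 2 or TD139-treated 3).

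Of 18 FGF ligand genes, 11 were tested and 0 called in edgeR, in vehicle-treated against naïve as in the drug comparison, with 0 at an unadjusted p-value under 0.05 and 0 called by DESeq2 or limma voom. The list of receptors and their partners had 8 tested genes, of which 2 were higher in vehicle-treated mice (Fgfr1 and Fgfrl1) and 2 lower (Fgfr1 and Fgfrl1) and 1 higher (Frs2) in the drug comparison. Fgfrl1, a receptor without a kinase domain, rose by a log2 fold change of 0.74 (adjusted p = 0.0485 in edgeR) and fell with TD139 by 0.81 (adjusted p = 0.0140), while the adaptor gene Frs2 rose with TD139 by 0.63 (adjusted p = 0.0149). Fgfr2, Fgfr3 and Fgfr4, named after their values were seen, were not called in the light comparison (adjusted p = 0.292, 0.266 and 0.425). The median log2 fold change of the receptor list was 0.53 and -0.49 in these comparisons, but -0.05 and 0.04 without vehicle-treated mouse 2, the mouse with the lens signal, in which Fgfr2 and Fgfr3 were at 16.0 and 19.6 CPM against at most 4.56 and 1.62 CPM in the other 8 mice. The FGF homologous factors, which are intracellular partners of sodium channels and not ligands of FGF receptors, had 4 tested genes. Fgf13 was higher in the light comparison (0.64, adjusted p = 0.0345) and Fgf11 higher in the drug comparison (0.60, adjusted p = 0.0239). In TD139-treated against naïve mice 3 of these 4 genes were higher, Fgf11, Fgf13 and Fgf14, where 2.72% of all tested genes were, at adjusted p-values of 0.0498, 0.0467 and 0.0458. With 1 mouse left out they were called in 2, 4 and 3 of 9 fits (adjusted p up to 0.175).

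Of 16 feedback and target genes of FGF and ERK signalling, 1 was higher in the light comparison, where 4.91% of all tested genes were higher. It was the ERK phosphatase gene Dusp6 (0.68, adjusted p = 0.0358 in edgeR). In the drug comparison 5 of the 16 were higher and 1 lower, where 17.2% of all tested genes were higher and 16.2% lower. The higher genes were the phosphatase gene Dusp4 (1.01, adjusted p = 0.0110) and Spred3 (0.74, adjusted p = 0.0314), an inhibitor of RAS signalling, with Spred2, Spry3 and Etv1, the latter 3 named after their values were seen. Spred2 (0.96), Spry3 (1.47) and Etv1 (0.61) lay near the threshold, with adjusted p = 0.0453, 0.0483 and 0.0448 in edgeR. Spry3 was at 9.56, 40.0 and 21.3 CPM in TD139-treated mice, which overlapped vehicle-treated mice at 10.6, 9.08 and 5.95 CPM. Spry1, an inhibitor of receptor tyrosine kinase signalling, was the lower one (-0.81, adjusted p = 0.0148). Inhibitors of the pathway were thus found in both directions, and Dusp6, with -0.31 (adjusted p = 0.157), was not called in the drug comparison.

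Among the EGF receptors and their regulators, 10 genes were tested. Besides Egfr, Erbb2, the co-receptor gene of the family, rose in vehicle-treated mice from 6.45, 7.39 and 6.38 to 12.3, 13.7 and 14.0 CPM, or by 0.98 on the log2 scale (standard error 0.16, adjusted p = 0.0127 in edgeR). In TD139-treated mice Erbb2 was at 8.42, 6.65 and 8.10 CPM and fell against vehicle by 0.79 (adjusted p = 0.00654). This second call held whichever of the 9 mice was left out (adjusted p at most 0.0375), while the first was lost without naïve mouse 2 or vehicle-treated mouse 3 (adjusted p at most 0.0651). The second lower gene in TD139-treated mice was Rhbdf1 (-0.96, adjusted p = 0.00842), an inactive rhomboid protein linked to the shedding of EGF ligands. Of the 9 tested EGF family ligand genes, Hbegf was the only one called in edgeR in the drug comparison, and 0 were called in the light comparison, where 1 had an unadjusted p-value under 0.05, DESeq2 called 0 and limma voom 1.

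Of 8 tested neurotrophin and receptor genes, Ntrk3, the neurotrophin 3 receptor gene, was higher in the drug comparison (0.56, adjusted p = 0.0136 in edgeR). Of 8 tested genes of the GDNF family, Nrtn, the neurturin gene, was lower in that comparison (-0.85, adjusted p = 0.0129), and Gfra1, named after its value was seen, was higher in TD139-treated than in naïve mice (0.67, adjusted p = 0.0454), a call kept in 2 of 9 fits with 1 mouse left out (adjusted p up to 0.163). Of 12 genes around Manf, which include chaperones induced by protein folding stress, the stress sensor gene Atf6 was higher in the drug comparison (0.49, adjusted p = 0.0150), and 0 were called in the light comparison, where 1 had an unadjusted p-value under 0.05, DESeq2 called 1 and limma voom 2. Of 9 other survival factor genes, Psap, the prosaposin gene, rose in vehicle-treated mice (0.40, adjusted p = 0.0413) and fell with TD139 (-0.53, adjusted p = 0.00650). Nxnl1, the gene of the rod-derived cone viability factor, fell in vehicle-treated mice (-0.68, adjusted p = 0.0456) and was higher with TD139 (0.58, adjusted p = 0.0315). The 6 rod marker genes described below had median log2 fold changes of -0.62 and 0.39 in the same comparisons. The growth factor genes Mdk (-1.10, adjusted p = 0.0229) and Ptn (-0.41, adjusted p = 0.0432, named after its value was seen) and the CNTF receptor gene Cntfr (-0.35, adjusted p = 0.0221) were lower in the drug comparison.

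Calls fell in number over all genes when some of the mice were left out. In the light comparison 1185 genes were called with all mice, and 91 without naïve mouse 1, 1 without naïve mouse 2 and 84 without vehicle-treated mouse 3. Of the 6 named list genes called in the light comparison, 0 were called in all 9 fits without 1 mouse, and all 6 lost the call without naïve mouse 2, and the highest adjusted p-value over the 9 fits was 0.0651 to 0.128 by gene. Of the 15 called in the drug comparison, 4 (Dusp4, Erbb2, Rhbdf1 and Psap) were called in all 9 such fits, while 11 lost the call without TD139-treated mouse 2 and 10 without TD139-treated mouse 3, and 0 without TD139-treated mouse 1. Over all genes, the number called in this comparison was 5072 with all mice, and 1626, 1917 and 5926 without TD139-treated mouse 2, 3 and 1. The highest adjusted p-value of these 11 genes was 0.0613 to 0.119. With the length and GC correction, 9 of the 15 lost the call (Fgfrl1, Frs2, Spry1, Ntrk3, Nrtn, Atf6, Psap, Cntfr and Mdk).

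**Figure D3:**
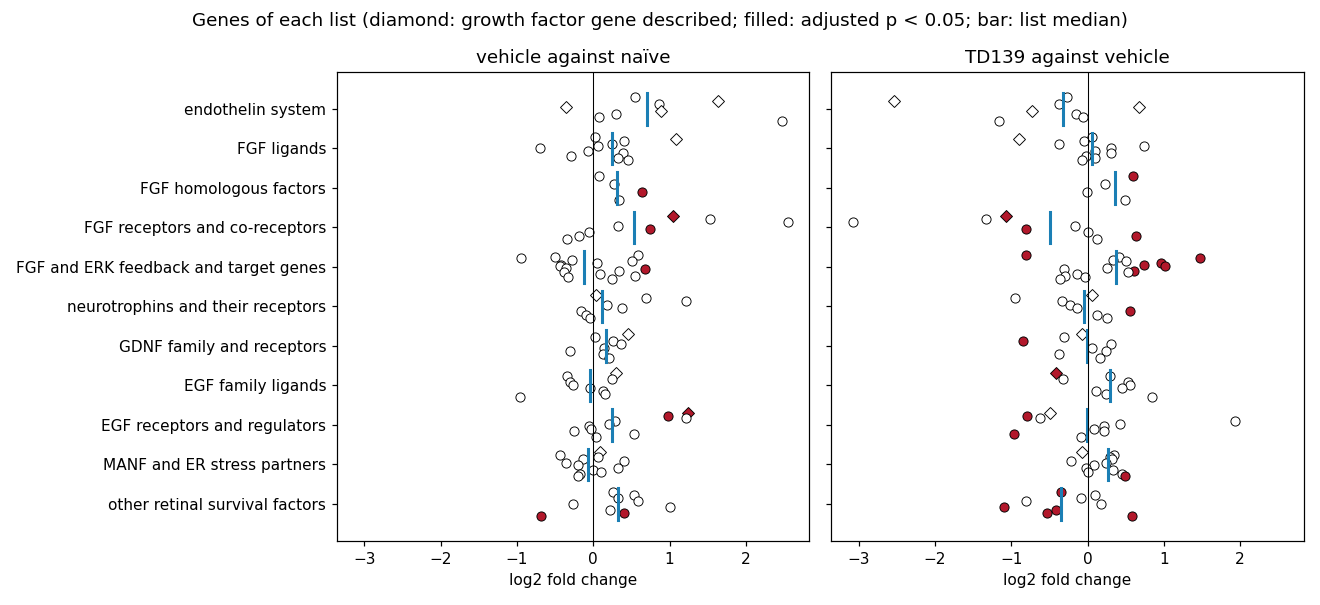
Log2 fold changes of the tested genes of the 11 lists in the light comparison (vehicle-treated against naïve mice) and in the drug comparison (TD139-treated against vehicle-treated mice). Each point is a gene, diamonds are the 10 genes described, filled points have an adjusted p-value under 0.05 and the bar is the list median. Fgfr1 and Fgfrl1 are the filled points of the FGF receptor list in the light comparison, and its median of 0.53 becomes -0.05 without vehicle-treated mouse 2.

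Markers of several cell types moved with these genes, and in whole retinas fewer cells of a type and less RNA per cell cannot be told apart. Beside the counts of called markers below, 4.91% of all tested genes were higher and 2.89% lower in the light comparison. In the drug comparison these shares were 17.2% and 16.2%. The summed level of 5 reactive glia genes, led by Vim, Lcn2 and Serpina3n, was 249 to 346 CPM in naïve, 979 to 1829 CPM in vehicle-treated and 178 to 378 CPM in TD139-treated mice. Of these 5 genes, 4 were higher in the light comparison and 5 lower in the drug comparison. The 8 microglia and macrophage genes summed to 17.8 to 20.5, 73.1 to 113 and 15.4 to 46.5 CPM in the same order, with 6 higher and then 7 lower. The 8 Müller glia genes, led by Glul and Dkk3, summed to 4306 to 4893, 5798 to 6230 and 4828 to 5735 CPM, with 5 higher and then 2 lower. The 4 astrocyte genes summed to 62.9 to 93.7, 159 to 416 and 33.5 to 89.8 CPM, with 1 higher and then 2 lower. These lists are not separate, since Gfap stands in both the astrocyte and the reactive glia sum and Vim in both the reactive glia and the Müller glia sum. Gfap made up 321 of the 416 CPM of the astrocyte genes in vehicle-treated mouse 3. Aldh1l1 was the astrocyte gene called higher in the light comparison (1.32, adjusted p = 0.0459 in edgeR) and was lower in the drug comparison (-1.73, adjusted p = 0.00825), while S100b and Pax2 differed by -0.09 and 0.25 on the log2 scale in the light comparison (adjusted p = 0.790 and 0.687 in edgeR). The 6 rod genes summed to 41559 to 44489, 25266 to 34300 and 33733 to 39440 CPM, with 4 lower and then 2 higher. The 6 pigment epithelium genes summed to 179 to 266, 263 to 433 and 160 to 204 CPM, with 0 of 5 tested genes called and then 3 lower. The 5 bipolar cell genes summed to 1240 to 1411, 1344 to 1459 and 1508 to 1552 CPM, with 0 called and then 3 higher and 1 lower, and the 5 endothelium genes to 165 to 247, 317 to 462 and 215 to 448 CPM, with 0 called and then 1 lower. TD139-treated mouse 1 was the highest of its group in reactive glia, microglia and astrocyte genes as in Edn2, Fgf2 and Fgfr1, and vehicle-treated mouse 3 the highest of its group in reactive glia, microglia and astrocyte genes as in Edn2, Ednra, Ednrb, Fgf2, Fgfr1, Bdnf, Hbegf and Egfr. Of the red blood cell genes, 2 of 4 symbols were in the files, and both were at 0 in all mice. The part of cell composition in the differences of Edn2, Ednrb, Fgfr1, Hbegf and Egfr, and of list genes such as Nxnl1, was not tested.

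**Figure D4:**
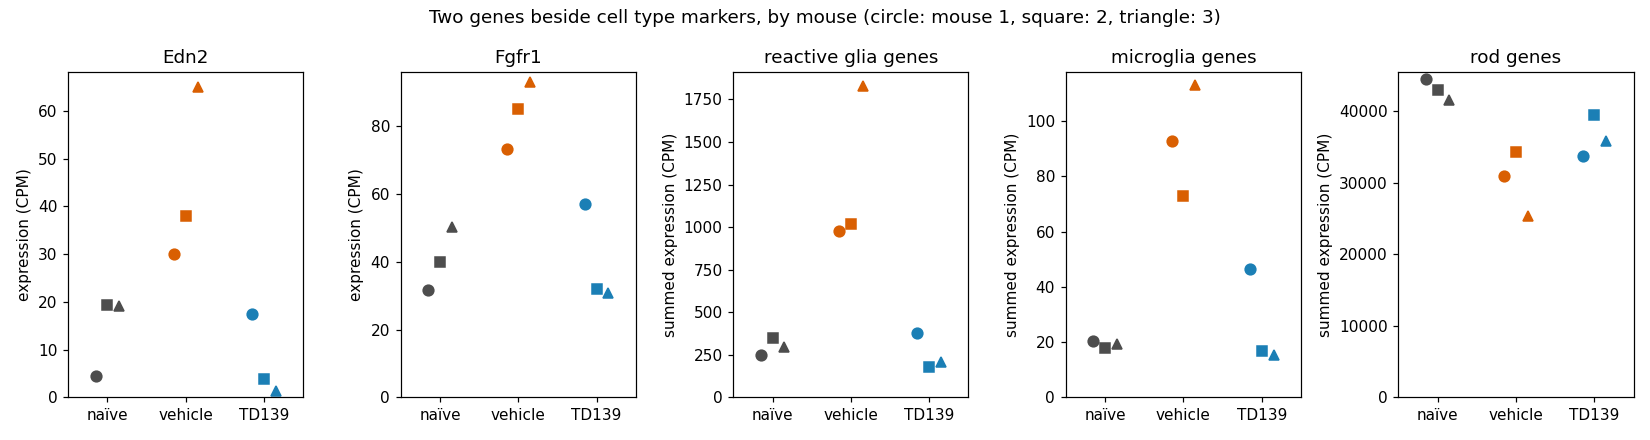
Expression of Edn2 and Fgfr1 (CPM) beside the summed expression (CPM) of reactive glia, microglia and rod marker genes in each of the 9 mice. Circles, squares and triangles are mice 1, 2 and 3 of a group. Reactive glia genes lie at 979 to 1829 CPM in vehicle-treated mice against at most 378 CPM elsewhere, and rod genes are lowest in vehicle-treated mouse 3, at 25266 CPM.

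**Figure D5:**
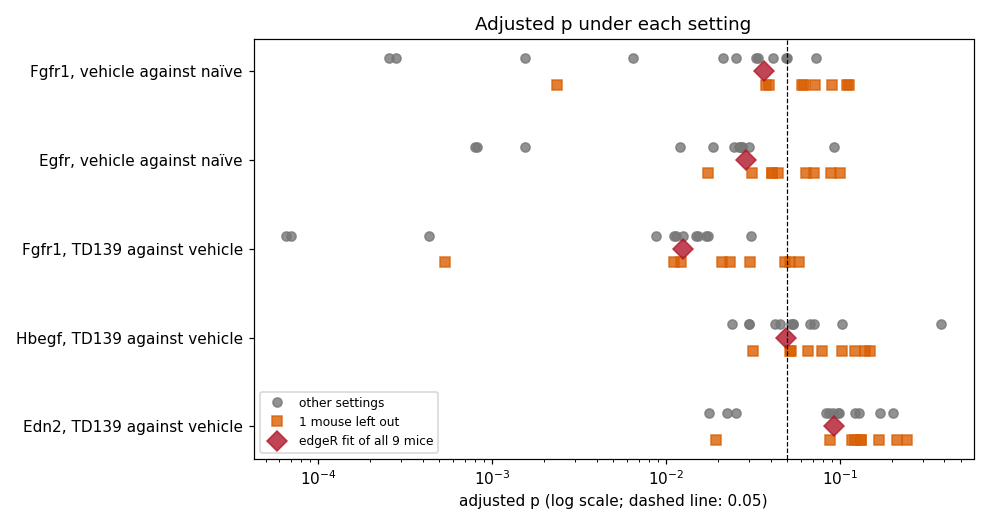
Adjusted p-values (log scale) of the 4 called differences and of Edn2 for TD139 against vehicle, under edgeR on all 9 mice (diamonds), 12 other settings (circles) and with 1 mouse left out (squares). The dashed line marks 0.05. For vehicle against naïve the largest values are 0.113 for Fgfr1 and 0.101 for Egfr. For TD139 against vehicle they are 0.0581 for Fgfr1, 0.381 for Hbegf and 0.245 for Edn2.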

How the data were processed

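Whole retinas of 9 mice were sequenced as poly(A) libraries from a stranded kit on 2 flow cells. Per the labels and methods, the deposited files, 1 per mouse and flow cell, hold whole-number counts of reads per gene, which the authors made with BaseSpace RNA Express. The data statement of the study speaks of counts normalized with DESeq2, but the values are whole numbers whose totals differ between mice, and they were used as raw counts. The submitters' processing notes name the build mm10; the annotation and strand setting are not given in the sources used here. Reads without a gene (16.5 to 22.8%) and ambiguous reads (0.303 to 0.471%) were left out. Both shares separated the TD139-treated mice from all other mice. Reads without a gene were 21.3 to 22.8% with TD139 against 16.5 to 19.9%, and ambiguous reads 0.303 to 0.363% against 0.374 to 0.471%. The part of this difference in the comparisons with TD139 was not tested. Counts of both flow cells were summed per mouse, since the runs of a mouse differed little (chi-square per degree of freedom 1.63 to 1.80, against 16.7 to 73.1 between mice of a group).

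Counts were fitted with edgeR 4.0.16 in R 4.3.3 (filterByExpr, TMM, robust quasi-likelihood F test, all 9 mice). A standard error is the log2 fold change divided by the square root of F. The other settings were DESeq2 1.42.0 (with or without a prior), limma 3.58.1 voom with quality weights, RLE or library size alone, no filter or at least 1 CPM in 3 mice, only the groups compared, a replicate block, each flow cell, a spline offset on transcript length and GC content, and each mouse left out. Positions and exon lengths are from GENCODE M21 on GRCm38, joined by symbol for 92.98% of genes. Steps were tested on simulated data.

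Named genes are the 10 members, up to 4 called genes of lowest adjusted p per list, the 3 genes most alike to each of 3 members, and up to 3 genes of highest count per marker list. Members and lists were chosen with earlier results of these data known. Of the rod marker list, 1 gene is not reported here and was left out of its sums.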

Additional observations from a re-analysis of the deposited data

How the results depend on the processing

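In vehicle-treated against naïve mice 2 of the 10 genes were called, and 1 with the replicate block (Egfr) or with flow cell 2 only (Fgfr1). With 1 mouse left out the count was 0 to 2, and it was 0 where the mouse was naïve 1, naïve 2, vehicle-treated 1 or vehicle-treated 3, fits in which 91, 1, 249 and 84 of all genes were called. In TD139-treated against vehicle-treated mice the count of 2 became 1 with RLE normalization, the replicate block, no filter on low counts, a fit of only the groups compared, flow cell 1 only or flow cell 2 only, and 3 with DESeq2 or limma voom. With 1 mouse left out it was 0 to 2, and 0 without TD139-treated mouse 2 or 3, where 1626 and 1917 of all genes were called. With the length and GC offset it stayed at 2, but the genes were Fgfr1 and Egfr. In TD139-treated against naïve mice the count of 0 became 1 (Egfr) with limma voom, and was 0 to 1 with 1 mouse left out.

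Replicate numbers did not pair the mice. Deviations of equal-numbered mice correlated by -0.06, 0.11 and 0.28 (vehicle-treated and naïve), -0.20, -0.25 and -0.26 (TD139-treated and vehicle-treated) and 0.06, -0.06 and 0.02 (TD139-treated and naïve). With the replicate block, 900, 4772 and 0 genes were called in the 3 comparisons, against 1185, 5072 and 775 without it.

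Directions that differed from the edgeR fit were those of genes that were not called. In vehicle-treated against naïve mice, the log2 fold change of Bdnf was -0.14 with limma voom and -0.08 with flow cell 1 only, and that of Manf -0.07 with the length and GC offset. In TD139-treated against vehicle-treated mice, Bdnf was -0.03 with library size alone and -0.20 with the offset, Gdnf 0.25 with limma voom and 0.07 with the replicate block, and Manf 0.06 with limma voom and 0.29 with the offset. In TD139-treated against naïve mice, the offset gave -0.03 for Ednrb, -0.13 for Fgf2 and -0.19 for Bdnf. Fgfr1 was 0.00 with library size alone and 0.03 with flow cell 2 only, and Manf -0.01 with flow cell 2 only. With 1 mouse left out, values in vehicle-treated against naïve mice ranged from -0.15 to 0.19 for Bdnf, -0.12 to 0.92 for Gdnf and -0.05 to 0.21 for Manf. In TD139-treated against vehicle-treated mice they ranged from -0.08 to 0.25 for Bdnf, -0.54 to 0.52 for Gdnf and -0.22 to 0.12 for Manf, and in TD139-treated against naïve mice from -0.31 to 0.92 for Fgf2, -0.36 to 0.17 for Fgfr1 and -0.12 to 0.22 for Manf. The causes were not tested.

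Library size alone moved the median of all genes to 0.09 and -0.10 in the first 2 comparisons and the share of higher calls from 63.0 to 77.6% and from 51.6 to 39.0%. The offset moved the median to -0.11 and 0.08, and the shares to 31.1 and 65.2%. In vehicle-treated against naïve mice 1185 genes were called in edgeR, 2418 with DESeq2, 3420 with limma voom and 2915 with the offset. Of 396 counts of list genes in other settings, 317 stayed within 1.5 times the count in edgeR or at 0. Of 297 counts with 1 mouse left out, 194 did. With 3 mice a group and 3 to 102 reads, the intervals of Fgf2 and Gdnf exclude little.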

Other observations

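Vehicle-treated mouse 2, which held the lens signal, also stood apart in genes of the FGF and endothelin lists that are named here after their values were seen. Fgfr3, an FGF receptor gene, was at 19.6 CPM in this mouse and at 0.370 to 1.62 CPM in the other 8. Fgfr2 was at 16.0 CPM against 1.18 to 4.56 CPM. Mme, the gene of the endothelin-degrading protease neprilysin, was at 9.08 CPM against 0.403 to 1.95 CPM. None of these 3 genes was called in edgeR in vehicle-treated against naïve mice, with adjusted p = 0.266 for Fgfr3, 0.292 for Fgfr2 and 0.138 for Mme. Fgfr1 in the same mouse, at 85.1 CPM, lay between the other vehicle-treated mice. The part of lens tissue in these values was not tested.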
